A study of Mus musculus with 6 samples.

Results

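Collagen chains were compared between inguinal white fat of wild-type (WT) mice and of mice labelled Naa10-KO. Naa10 is an enzyme that acetylates the N-termini of proteins. Members are all genes whose annotated symbol on the Affymetrix mouse genome array reads Col, digits, a, digits, taken from probe sets annotated to 1 gene. The rule found 42 chains among 18193 genes, read by 82 probe sets, and where a chain had several, the one whose average over the 6 arrays was highest stood for it. The chains fell into 11 fibrillar chains, 6 type IV chains of basement membranes and 25 chains of other classes. There were 3 WT and 3 Naa10-KO mice, each on 1 array. All 6 mice were male, began a high-fat diet (60% of its calories as fat) at 6 weeks of age, stayed on it for 15 weeks, and spent 4 h at 4 °C just before sampling. No mice on another diet or at another temperature were part of the comparison. The labels give the genotype only as wildtype or Naa10-KO, with no allele, promoter or strain. The series title asks about thermogenesis by beige adipocytes, and the collagens are outside that question.

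Collagens are the main structural proteins of the extracellular matrix, and each molecule is a helix wound from α chains encoded by separate genes. Fibrillar collagens, chiefly types I, III and V in soft tissue, form the banded fibrils that carry tension, and type IV collagen forms the mesh of basement membranes around adipocytes and vessels. Type VI collagen makes beaded filaments that surround adipocytes, and in obese fat the fibrillar and type VI collagens are known to accumulate around the cells. Most fibrillar collagen of fat is made by fibroblasts and adipocyte progenitors, while adipocytes and endothelial cells contribute to type IV and type VI.

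Promoter windows in a RefSeq table of build GRCm38.p6 were found for 33 of the 42 chains, in 36 windows. No window was listed for Col1a1, Col2a1, Col4a3, Col5a2, Col9a3, Col12a1, Col14a1, Col22a1 and Col26a1. The 250 bases before the start site are shown for the fibrillar chains with a window whose genotypes did not overlap in the values given further on. They lie on the plus strand at chr6:4505368-4505617 for Col1a2, chr1:45311288-45311537 for Col3a1 and chr2:27886175-27886424 for Col5a1. Capitals mark matches, on either strand, to CCAAT (the CCAAT box), TATAAA (the TATA box) or GGGCGG (the GC box).
Col1a2: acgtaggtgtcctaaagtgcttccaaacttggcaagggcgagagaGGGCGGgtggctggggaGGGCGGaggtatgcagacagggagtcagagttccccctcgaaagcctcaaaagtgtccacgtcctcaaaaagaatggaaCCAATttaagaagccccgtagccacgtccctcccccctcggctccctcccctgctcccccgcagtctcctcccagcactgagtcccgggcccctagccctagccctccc
Col3a1: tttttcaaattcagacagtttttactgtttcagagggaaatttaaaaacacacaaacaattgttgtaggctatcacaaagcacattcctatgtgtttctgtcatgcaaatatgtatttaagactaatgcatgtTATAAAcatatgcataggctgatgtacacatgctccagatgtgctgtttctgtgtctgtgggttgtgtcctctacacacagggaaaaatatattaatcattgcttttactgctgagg
Col5a1: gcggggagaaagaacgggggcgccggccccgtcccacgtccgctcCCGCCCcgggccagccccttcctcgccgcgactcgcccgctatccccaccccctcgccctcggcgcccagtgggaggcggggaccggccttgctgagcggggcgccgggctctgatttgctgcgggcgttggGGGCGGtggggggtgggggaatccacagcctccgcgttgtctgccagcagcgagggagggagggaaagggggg

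The sequences differ in composition. The Col1a2 and Col5a1 windows hold matches to GGGCGG, while the Col3a1 window holds a match to TATAAA and none to GGGCGG. The distance of a match from the start site was not considered, so a match is not shown to be a working box. Over the 36 collagen windows, GGGCGG occurred in 21 (58.3%), against 32.7% of all 32851 windows in the table. CCAAT occurred in 13 (36.1%) against 33.8%, and TATAAA in 5 (13.9%) against 12.4%. These are counts of letters, with no test, and the array data do not say whether a factor binds there. Col4a1 and Col4a2, which encode the α chains of the most widespread type IV molecule, start head to head. Their annotated starts bound a stretch of 22 bases at chr8:11312805-11312826. Col4a2 begins on the plus strand at its first base and Col4a1 on the minus strand at its last. The annotated transcripts therefore overlap there, and the stretch lies inside both and is not a gap between the genes. This stretch is shown on the plus strand because the values of the pair are set side by side further on.
Col4a1 and Col4a2 starts: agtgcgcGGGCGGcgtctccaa

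Signals are on the log2 scale as deposited, so a difference of 1 is a doubling. Signals below 5.86, the median over all probe sets and arrays, are called low, and this value is named the mark. Array medians lay between 5.78 and 5.96, and correlations between arrays over all probe sets between 0.903 and 0.917. Adipocyte markers were high on all arrays, with list means of 13.57 to 14.07 (10 of 12 markers measured, all with a mean above the mark), among them Adipoq at 15.61 in WT and 15.71 in Naa10-KO. The median difference of the adipocyte list was -0.09, that of fibroblast and progenitor markers -0.09 (10 measured), of macrophages -0.01 (12), of endothelium -0.04 (12) and of smooth muscle and pericytes -0.14 (10). It was 0.78 for Schwann cells and nerve (7), -0.12 for skin epithelium (11) and -0.14 for cartilage and tendon (10), against 0.01 over all genes. Fibroblast and progenitor markers went both ways, 6 lower and 4 higher, from -0.59 for Lum to 0.60 for Pdgfra. Skeletal muscle markers differed with genotype: 20 of 20 had their higher mean in Naa10-KO, with list means of 5.22, 5.82 and 8.39 on the WT arrays and 11.21, 11.22 and 11.52 on the Naa10-KO arrays. On Naa10-KO replicate 1 the 3′ control probe set of Gapdh exceeded the 5′ one by 0.55 (log2), while on the remaining arrays this gap ran from -0.27 to 0.01. The part of muscle tissue, of cell numbers and of RNA quality in the collagen differences was not tested, and in tissue RNA fewer cells of a type and less RNA per cell cannot be told apart.

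Of the 42 chains, 29 had a lower and 13 a higher mean signal in Naa10-KO. The median log2 difference was -0.46, against 0.01 over all genes, of which 48.6% had a lower and 51.4% a higher mean in Naa10-KO. No chain passed in limma at a Benjamini-Hochberg adjusted p of 0.05 over all genes, a threshold passed by 0.115% of all genes (0.0275% lower and 0.0879% higher in Naa10-KO). Adjusted p-values of the chains lay between 0.503 and 0.996. At an unadjusted p under 0.05 there were 2 chains, Col5a1 and Col5a2, both lower, against 9.20% of all genes at that level, made up of 4.35% lower and 4.85% higher. All Naa10-KO arrays lay below all WT arrays for 8 chains, against 8.14% of all genes, and above them for 1 chain, against 10.0%. A mean over the 6 arrays at or above the low mark was reached by 20 chains. Of these 19 had lower means in Naa10-KO, against 46.8% of the genes at or above the mark, and their median difference was -0.60. The 8 chains with all Naa10-KO arrays below WT were all among these 20, against 9.76% of the genes at or above the mark. Of the other 22 chains, 13 lay below the mark on all arrays.

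**Figure D1:**
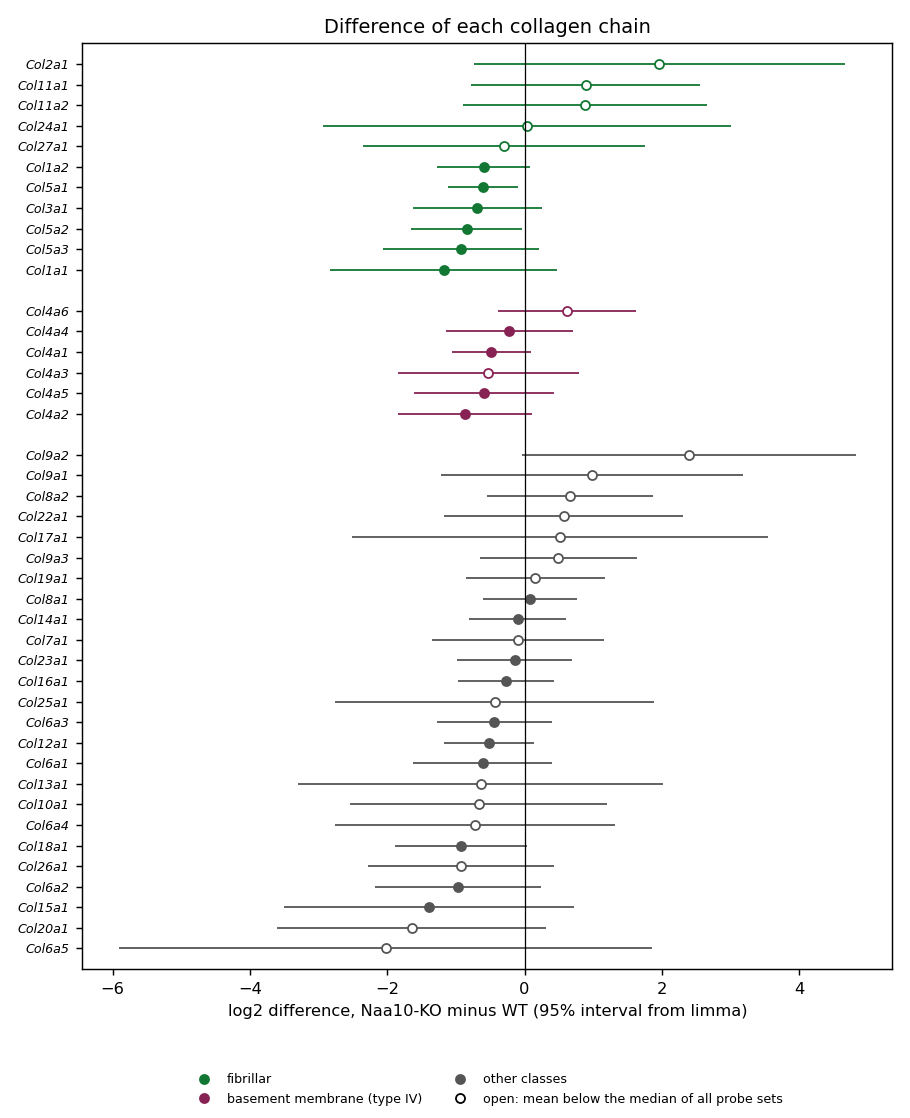
Log2 difference of each of the 42 collagen chains (Naa10-KO minus WT, 3 arrays each), with limma's 95% interval as a line, sorted within fibrillar, type IV and other chains. Filled points have a mean at or above the median of all probe set values, 5.86, and all of them but Col8a1 lie left of 0, while most of the wide intervals belong to open points.

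A single array weighed heavily in these differences. Naa10-KO replicate 1 was the lowest of the 6 arrays for 19 of the 20 chains at or above the mark, against 24.6% of the genes at or above it. The median of the 20 chains, each taken relative to its own WT mean, was -1.26 on Naa10-KO replicate 1, -0.28 on replicate 2 and -0.23 on replicate 3. For fibroblast and progenitor markers the same medians were -0.35, 0.07 and -0.01. Without Naa10-KO replicate 1, an alternative chosen after seeing the data for this subset, 17 of the 20 chains kept a lower mean and their median difference was -0.32. Over all 42 chains the median went from -0.46 to -0.15 and the number of lower means from 29 to 25. With that array left out, both remaining Naa10-KO arrays lay below all WT arrays for 8 of the 20 chains, against 12.2% of the genes at or above the mark. These are the same 8 chains as with all 6 arrays. A chain separated on all arrays stays so when 1 is dropped, so this count could not fall.

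**Figure D2:**
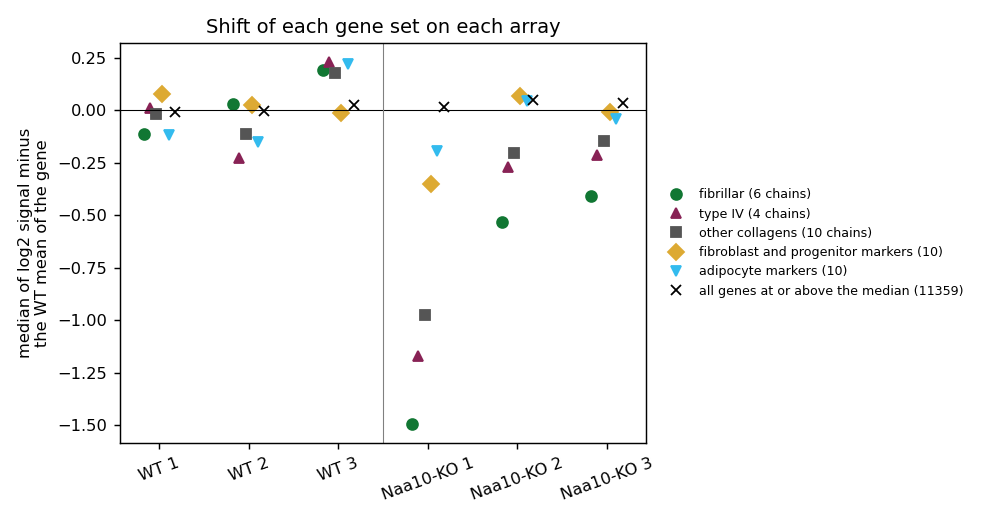
Median of log2 signal minus the gene's WT mean on each array, for collagen classes (chains at or above the median of all probe sets), fibroblast and adipocyte markers and all genes at or above that median. On Naa10-KO replicate 1 the 3 collagen classes lie near -1 or below it, and on replicates 2 and 3 they lie between -0.53 and -0.15.

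Among the fibrillar collagens, all 6 chains with signal at or above the mark were lower in Naa10-KO, by 0.59 to 1.18 on the log2 scale. The groups did not overlap for 5 of these 6. Col1a1 and Col1a2 encode the chains of type I collagen, the main fibril of skin, tendon and fat septa. Col1a1 was at 8.86, 9.27 and 9.50 in WT and at 6.58, 8.69 and 8.82 in Naa10-KO. The Naa10-KO arrays all lay below the WT arrays, but replicates 2 and 3 by little and replicate 1 by over 2 units. The difference was -1.18 (SE 0.66, limma adjusted p = 0.621), and -0.45 without Naa10-KO replicate 1. Col1a2 was at 13.32, 13.49 and 13.50 in WT and at 12.31, 13.21 and 13.01 in Naa10-KO. The 3 WT values were tight and again replicate 1 was the lowest, for a difference of -0.59 (SE 0.27, limma adjusted p = 0.573), and -0.33 without it.

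Col3a1, the type III chain that accompanies type I in distensible tissue, was at 14.67, 14.46 and 14.81 in WT and at 13.17, 14.35 and 14.36 in Naa10-KO. Replicates 2 and 3 of Naa10-KO lay just under the lowest WT array. The difference was -0.69 (SE 0.37, limma adjusted p = 0.611), and -0.29 without Naa10-KO replicate 1.

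Type V collagen nucleates fibrils and limits their diameter, and Col5a1 and Col5a2 had the smallest unadjusted p-values of the 42 chains. Col5a1 was at 9.49, 9.50 and 9.81 in WT and at 8.70, 9.06 and 9.23 in Naa10-KO. These groups were separated on every array, with a difference of -0.61 (SE 0.20, 95% interval -1.12 to -0.09), a 1.52-fold higher level in WT. The adjusted p in limma was 0.503. Without Naa10-KO replicate 1 the difference was -0.46. Col5a2 was at 12.67, 12.56 and 12.41 in WT and at 11.03, 11.99 and 12.09 in Naa10-KO, which were all lower than WT. Its difference was -0.84 (SE 0.32, 95% interval -1.65 to -0.04, limma adjusted p = 0.540), and -0.51 without Naa10-KO replicate 1. Col5a3, which is found in a subset of type V molecules, was at 9.50, 10.13 and 10.38 in WT and at 8.21, 9.46 and 9.56 in Naa10-KO. Here the highest Naa10-KO array passed the lowest WT array by 0.05, and the difference was -0.93 (SE 0.45, limma adjusted p = 0.595), and -0.50 without Naa10-KO replicate 1.

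**Figure D3:**
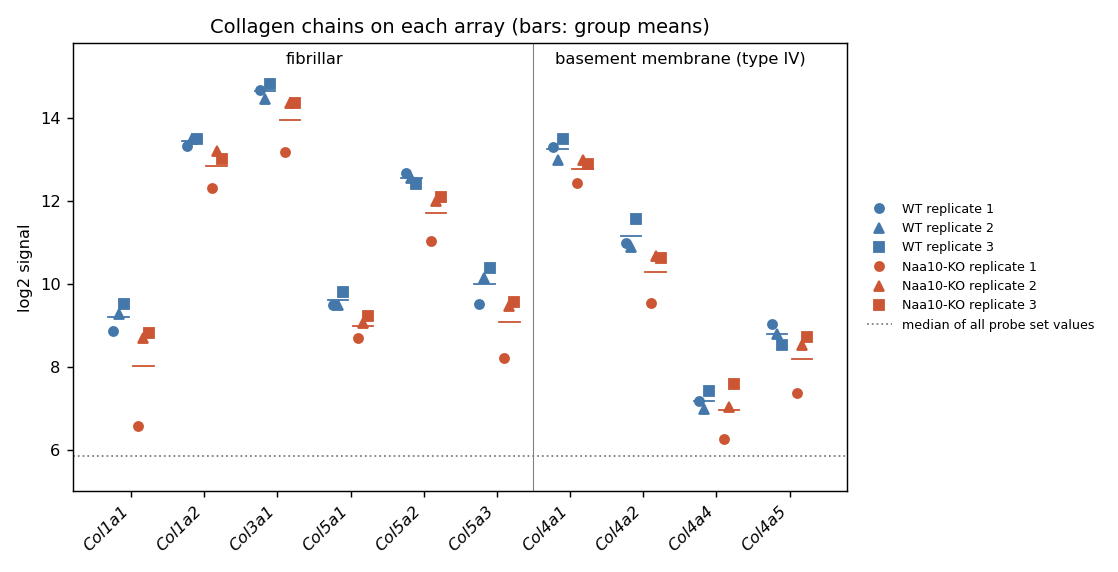
Log2 signal of the 6 fibrillar and 4 type IV chains at or above the median of all probe set values (dotted line) on each array, with WT in blue, Naa10-KO in red, a symbol for each replicate number and bars for group means. Naa10-KO replicate 1 (red circle) is the lowest point of every chain, and the other Naa10-KO arrays lie close below WT for most of them.

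The other 5 fibrillar chains lay at low signal, and 4 of them were below the mark on all arrays. Col2a1, Col11a1 and Col11a2 belong to the fibrils of cartilage, and they differed by 1.96, 0.89 and 0.88 with overlapping groups. For Col2a1, Naa10-KO replicates 2 and 3 were at 5.28 and 4.63 and the other 4 arrays between 1.27 and 2.58. Col24a1 differed by 0.04 and Col27a1 by -0.30, with limma intervals that spanned more than 2 units on each side of 0 for Col24a1. With these 5 included, the median of the 11 fibrillar chains was -0.59, with 7 lower and 4 higher. Without Naa10-KO replicate 1 it was -0.29, again with 7 lower.

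Of the 6 type IV chains, 5 had lower means in Naa10-KO, with a median difference of -0.51. Without Naa10-KO replicate 1 the median was -0.17, with 4 of 6 lower. Col4a1 was at 13.29, 12.99 and 13.50 in WT and at 12.44, 12.98 and 12.90 in Naa10-KO. The groups did not overlap, but Naa10-KO replicate 2 lay close under WT replicate 2. Its difference was -0.48 (SE 0.23, limma adjusted p = 0.587). Col4a2, its head-to-head partner, was at 10.99, 10.90 and 11.55 in WT and at 9.54, 10.67 and 10.64 in Naa10-KO. All Naa10-KO arrays were lower, by a mean of 0.87, for a difference of -0.87 (SE 0.39, limma adjusted p = 0.568). Without Naa10-KO replicate 1 the differences of the pair were -0.32 and -0.50.

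Chains of the rarer type IV molecules, known chiefly from kidney, lung and eye, overlapped between genotypes. Col4a5 was at 9.03, 8.79 and 8.53 in WT and at 7.36, 8.51 and 8.72 in Naa10-KO. Naa10-KO replicate 1 alone stood below the WT range by over 1 unit, so the difference of -0.59 (SE 0.40) became -0.17 without it. Col4a4 differed by -0.22, a value that turned to 0.13 without Naa10-KO replicate 1. Col4a4 was at 7.17, 6.97 and 7.41 in WT and at 6.27, 7.03 and 7.59 in Naa10-KO, with the highest and the lowest value both in Naa10-KO. Col4a3 (-0.53) and Col4a6 (0.62) had means below the mark, and Col4a6 lay below it on all arrays.

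Type VI collagen is assembled from the products of Col6a1, Col6a2 and Col6a3, and a fragment of the Col6a3 chain is secreted by fat as endotrophin. Col6a1 was at 10.32, 10.45 and 10.98 in WT and at 9.19, 10.35 and 10.40 in Naa10-KO, a difference of -0.61 (SE 0.40). Col6a2 was at 11.34, 11.73 and 11.71 in WT and at 9.61, 10.94 and 11.35 in Naa10-KO, a difference of -0.96 (SE 0.48). Col6a3 was at 12.28, 11.75 and 12.37 in WT and at 11.10, 11.97 and 12.02 in Naa10-KO, a difference of -0.44 (SE 0.33). Groups overlapped for each of these chains through Naa10-KO replicate 2, replicate 3 or both, and limma adjusted p-values were 0.667, 0.598 and 0.700. Without Naa10-KO replicate 1 the differences were -0.21, -0.45 and -0.14. Col6a4 and Col6a5, alternatives to Col6a3, were below the mark on all arrays, at -0.72 and -2.02 with limma standard errors of 0.81 and 1.54.

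The multiplexins of basement membrane zones, Col15a1 and Col18a1, were both lower in Naa10-KO. Col18a1, whose C-terminal fragment is endostatin, was at 9.55, 9.64 and 10.02 in WT and at 8.08, 8.93 and 9.43 in Naa10-KO. All Naa10-KO arrays lay below WT, with a difference of -0.92 (SE 0.38, limma adjusted p = 0.547), and -0.56 without Naa10-KO replicate 1. Col15a1 was at 7.94, 8.39 and 8.86 in WT and at 5.18, 7.62 and 8.22 in Naa10-KO. Its difference of -1.39 (SE 0.84) was the largest among the 20 chains at or above the mark and rested mostly on replicate 1, as it was -0.48 without that array.

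FACIT collagens, which sit on the surface of fibrils, overlapped between genotypes where they had signal. Col12a1, abundant around tension-bearing fibrils, was at 8.46, 8.17 and 7.88 in WT and at 7.26, 7.75 and 7.96 in Naa10-KO. Only Naa10-KO replicate 3 reached the WT range, and the difference was -0.52 (SE 0.26, limma adjusted p = 0.599), and -0.32 without Naa10-KO replicate 1. Col14a1, a marker of many adipose fibroblasts, was at 10.74, 10.83 and 10.09 in WT and at 10.12, 10.74 and 10.50 in Naa10-KO. These groups lay on top of each other, with a difference of -0.10 (95% interval -0.81 to 0.61), and 0.067 without Naa10-KO replicate 1. Col16a1 was at 8.05, 7.43 and 7.73 in WT and at 7.02, 7.76 and 7.62 in Naa10-KO, a difference of -0.27 (SE 0.28), and -0.047 without Naa10-KO replicate 1. Col20a1 had a WT mean at the mark, 5.87, and a Naa10-KO mean of 4.23, a difference of -1.64 (SE 0.78). It was at 5.65, 5.53 and 6.43 in WT and at 3.67, 5.89 and 3.11 in Naa10-KO, so that Naa10-KO replicate 2 lay within the WT range and the other Naa10-KO arrays below it.

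The remaining FACIT chains had means below the mark. Col9a1, Col9a2 and Col9a3 encode type IX collagen of cartilage and differed by 0.98, 2.39 and 0.49. Col9a2 was the chain whose Naa10-KO arrays all lay above WT, at 1.25, 4.49 and 4.66 against 0.92, 1.20 and 1.09. All 6 of these values lay below the mark, and with low values raised to it no difference remained to test. Col19a1 (0.16) and Col22a1 (0.57), the latter known from tissue junctions such as that of muscle and tendon, overlapped between genotypes.

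Among the other classes, Col8a1, a short-chain collagen of vessel walls, was the exception among the 20 chains with signal, in its chosen probe set. It was at 8.18, 7.64 and 7.80 in WT and at 7.53, 7.98 and 8.33 in Naa10-KO, with a difference of 0.07 (95% interval -0.61 to 0.76), and 0.28 without Naa10-KO replicate 1. Its partner Col8a2 lay below the mark on all arrays and differed by 0.66. Col23a1, a transmembrane collagen, was at 6.60, 6.73 and 7.66 in WT and at 6.59, 7.03 and 6.95 in Naa10-KO (difference -0.14, SE 0.33, and -0.0064 without Naa10-KO replicate 1). Col7a1, which forms the anchoring fibrils of skin, was close to the mark in both groups, at 6.02, 6.65 and 4.97 in WT and 5.28, 5.88 and 6.19 in Naa10-KO. The difference of Col7a1 was -0.10. Col10a1, Col13a1, Col17a1, Col25a1 and Col26a1 had means below the mark and differed by -0.66, -0.64, 0.51, -0.44 and -0.93, with overlapping groups.

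**Figure D4:**
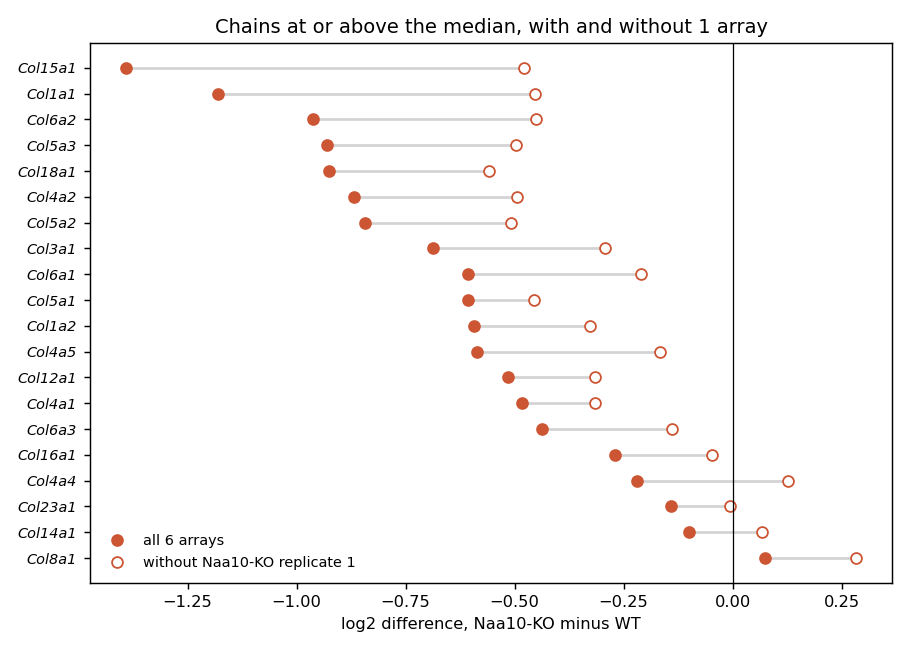
Log2 difference (Naa10-KO minus WT) of the 20 collagen chains at or above the median of all probe sets, with all 6 arrays (filled) and without Naa10-KO replicate 1 (open). Every open point lies to the right of its filled point, and 17 of the 20 open points stay below 0.

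Second probe sets of the same chains gave a further reading of the same RNA. For 10 chains, 2 probe sets had means at or above the mark, and 19 of these 20 probe sets had lower means in Naa10-KO. For 9 of the 10 chains both had the same sign. The exception was Col14a1, at -0.10 and 0.01. The size varied between probe sets of a chain, with -0.69 and -1.31 for Col3a1, -0.48 and -0.96 for Col4a1, -1.18 and -0.74 for Col1a1 and -0.61 and -0.38 for Col5a1. The probe sets of Col5a2 gave -0.84 and -0.82. Relative to the WT mean, the second Col3a1 probe set was at -2.32, -0.97 and -0.65 on Naa10-KO replicates 1 to 3, and the second Col5a1 probe set at -1.09, 0.01 and -0.06. Col3a1 thus lay below the WT mean on all Naa10-KO arrays in both readings, while Col5a1 did so in the chosen one only. With all collagen probe sets tested one by one, 62 of 82 were lower and 0 passed in limma (smallest adjusted p = 0.595, 4 at an unadjusted p under 0.05, all lower).

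Genes that make, bind and remodel collagen were set beside the chains, in lists drawn up by function. None of their members passed in limma over all genes, and their smallest adjusted p was 0.501. Of the enzymes and chaperones of collagen synthesis, 21 of 28 measured had lower means in Naa10-KO (median -0.21). Pcolce2, an enhancer of procollagen processing, was at 13.65, 13.90 and 13.14 in WT and 12.36, 12.93 and 12.93 in Naa10-KO (difference -0.82, SE 0.28). Serpinh1, the collagen chaperone Hsp47, was at 12.93, 12.84 and 12.69 in WT and 11.65, 12.39 and 12.55 in Naa10-KO (difference -0.62, SE 0.27). Loxl4, a cross-linking oxidase close to the low mark, differed by -0.44. Groups were separated on every array for Pcolce2 and Serpinh1 and overlapped for Loxl4.

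Of the collagen receptors, 8 of 9 measured had lower means (median -0.51), and for 4 of 9 all Naa10-KO arrays lay below all WT arrays, against 8.14% of all genes. Mrc2, an endocytic receptor that clears collagen fragments, was at 9.39, 9.07 and 9.65 in WT and 8.30, 9.01 and 8.62 in Naa10-KO. Its groups were separated, by 0.07 at the closest, with a difference of -0.73 (SE 0.26). The integrin subunits Itga1 and Itga10 differed by -0.51 and -1.09, with all Naa10-KO arrays below WT. Itga10 was at 5.80, 5.72 and 6.59 in WT and 5.27, 4.44 and 5.13 in Naa10-KO, above the mark only on WT replicate 3. Without Naa10-KO replicate 1 the receptor median was -0.45, while that of the 42 chains was -0.15. The other lists also moved less than the chains, with synthesis at -0.15 and basement membrane partners at -0.18. Breakdown was at -0.02 and the TGF-β pathway at 0.15 without that array. Ddr2, the receptor kinase for fibrillar collagen, differed by 0.02.

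Collagen breakdown showed no common direction, with 8 of 15 lower (median -0.08). Of the inhibitors of metalloproteinases, Timp3 differed by 0.51 (SE 0.21) with all Naa10-KO arrays above WT, Timp4 by 0.66 (SE 0.35) with overlap, and Reck by 0.29 (SE 0.15) with all Naa10-KO arrays above WT. Timp2 differed by 0.14 and Timp1 by -0.38, each with overlap, so Timp1 alone of the named inhibitors had a lower mean. The metalloproteinases Mmp14, Mmp2 and Mmp3 differed by -0.19, -0.17 and -0.08, and Mmp9 and Mmp11 by 0.52 and 0.18, without a common direction. Among those with means below the mark, Mmp13 differed by -2.66 with all Naa10-KO arrays below WT, Mmp8 by -0.62 and Mmp16 by 0.18. Non-collagen partners in basement membranes had 12 of 16 lower means (median -0.24). Hspg2, the proteoglycan perlecan, was at 10.26, 9.57 and 10.36 in WT and 8.46, 9.37 and 9.38 in Naa10-KO (difference -0.99, SE 0.36). All Naa10-KO arrays lay below WT for Hspg2, and likewise for Nid2, a nidogen (-0.78), and Lama5, a laminin chain (-0.70). The laminin chains Lama4 and Lamb1 differed by 0.01 each.

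TGF-β is the best known inducer of fibrillar collagen genes. In the list of its pathway, which holds inhibitors as well as activators, most means went the other way. They were higher in Naa10-KO for 13 of 19 (median 0.21), among them the inhibitors Smad7 (0.15), Skil (0.23) and Ski (0.08). For 7 of 19, Smad7 included, the Naa10-KO and WT arrays were separated in that direction, against 10.0% of all genes. All 19 had means at or above the mark, where groups were separated upward for 1482 of 11359 genes. The direction of signalling was not tested. Tgfbr1, the signalling receptor, was at 11.22, 11.03 and 11.14 in WT and 11.37, 11.59 and 11.51 in Naa10-KO (difference 0.36, SE 0.14, limma adjusted p = 0.540). Tgfbr2 and Tgfbr3, named after their values were seen, differed by 0.36 and 0.45, and both were higher on every Naa10-KO array. Of the proteins that hold latent TGF-β in the matrix, Ltbp1 differed by 0.38 and Ltbp3 by -0.56, each with separated groups. Ccn2, a widely used target gene, differed by -0.07, and Tgfbi, another target, by 0.21. The ligands Tgfb1, Tgfb2 and Tgfb3 differed by -0.14, 0.43 and -0.31, with overlapping groups.

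**Figure D5:**
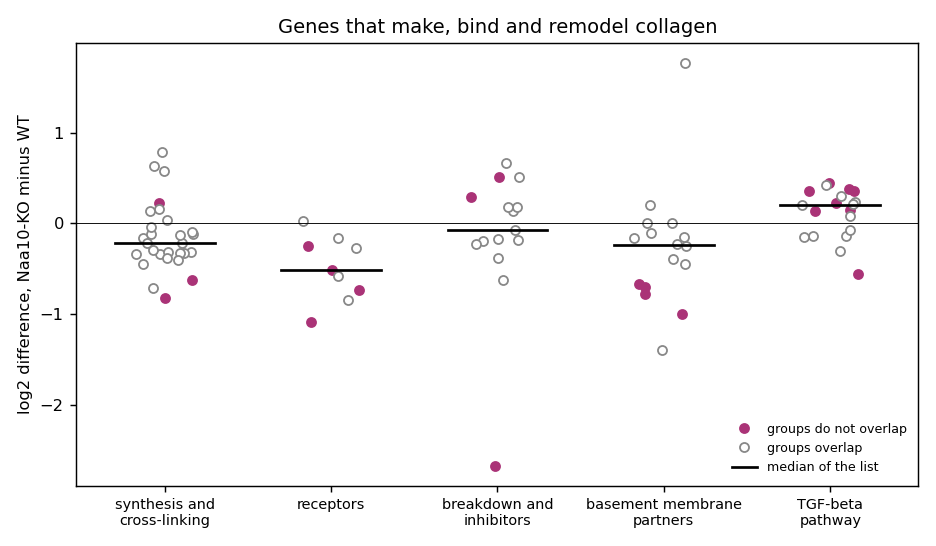
Log2 difference (Naa10-KO minus WT) of each measured gene in 5 lists around collagen, with the list median as a bar and filled points where the 3 Naa10-KO arrays do not overlap the 3 WT arrays. Receptors have the lowest median (-0.51) and the TGF-β pathway the highest (0.21).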

How the data were processed

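RNA of 6 mice was measured on 6 arrays. The authors deposited 1 log2 signal per probe set and array (45101 probe sets); the software was not given in the sources used here. The linear trimmed mean (2% off either tail) equalled 500 on each of the arrays. Values were used as deposited, and no detection calls were used. Probe sets were named through a platform annotation of GEO, with 34945 of 1 gene, and all 42 chains matched RefSeq. limma 3.58.1 in R 4.3.3 (lmFit, eBayes, 2-sided, genotype only) was fitted over 18193 genes, with Benjamini-Hochberg adjustment and a threshold of 0.05, and was tested on simulated data. Means and SE are over n = 3 arrays a group. Precision is limited by there being 6 arrays, each of a separately numbered mouse.

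Members, classes and lists were chosen with earlier results of these data known, so lists have counts and medians and no test. Every chain may be named. Values on each array are given for fibrillar and type IV chains whose higher group mean reached the median of all probe set values, and for the 3 such chains of each other class with the smallest unadjusted p. The 3 such genes of each partner list are named. Other genes named, and the array values of Col14a1, Col9a2 and Col2a1, were chosen after values were seen. Naa10 itself was not analysed here (the annotation used names no probe set for it), so genotypes were taken from the labels.

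Alternatives were quantile normalization, centring of arrays, a filter on low values, low values raised to the median, the mean of a gene's probe sets, omission of x_at and s_at probe sets, the trend and robust options of eBayes, the replicate number as a block, and each array left out. Tests of all probe sets one by one, and list counts without Naa10-KO replicate 1, were chosen after seeing the data.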

Additional observations from a re-analysis of the deposited data

How the results depend on the processing

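In limma 0 collagen chains passed, in either direction, with all arrays and in each of the alternatives, although the number of all genes that passed ran from 0 to 137 against 21. The smallest adjusted p of a chain over the alternatives was 0.0904 (Col9a2, without Naa10-KO replicate 1). Chains at an unadjusted p under 0.05 in limma ran from 1 (without WT replicate 2) to 8 (trend and robust options), against 2. With those options all 8 were lower, against 5.80% of all genes lower at that level. With the filter on low values they were 7 of 20 chains, all lower, against 6.72% of the genes kept. With the replicate block 0 chains passed and the collagen median stayed at -0.46. The replicate numbers did not pair the arrays (correlations of deviations -0.01, -0.01 and -0.03, with 0 arrays closest to their own number). With single arrays left out, the collagen median ran from -0.58 to -0.15 and that of the other classes from -0.41 to -0.047, the upper end of both without Naa10-KO replicate 1. The count of chains lower on all Naa10-KO arrays ran from 9 to 14 against 8, with 14 without WT replicate 1 and 14 without Naa10-KO replicate 3, where fewer arrays have to be separated. With low values raised to the median, signs turned for Col19a1 (-0.0054), Col22a1 (-0.094) and Col27a1 (0.20). With the mean of a gene's probe sets they turned for Col22a1 (-0.059), Col27a1 (1.19), Col4a6 (-0.33), Col8a1 (-0.20), Col9a1 (-0.0020) and Col9a3 (-0.16), and the cause was not tested. With single arrays left out the sign also turned within the ranges -1.22 to 0.16 for Col10a1, -1.34 to 0.49 for Col13a1, -0.33 to 0.067 for Col14a1, -0.44 to 1.49 for Col17a1, -0.19 to 0.53 for Col19a1 and -0.34 to 0.19 for Col23a1. The ranges were -1.31 to 0.80 for Col24a1, -1.06 to 0.40 for Col25a1, -1.10 to 0.33 for Col27a1, -0.53 to 0.13 for Col4a4, -0.56 to 0.29 for Col7a1 and -0.12 to 0.28 for Col8a1. Of these chains, only Col14a1, Col23a1, Col4a4 and Col8a1 had a mean at or above the median of all probe sets. With 3 arrays a group and low signal over background for 22 chains, small differences could not be resolved.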
